A study of Mus musculus with 8 samples.

Results

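The 46 genes of lipid synthesis, lipid droplets and milk fat described here were followed across 4 groups of sorted mouse mammary cells. They were taken by gene symbol: 18 genes of fatty acid synthesis and activation, 9 of sterol synthesis, 6 of triglyceride synthesis and lipolysis, 5 of the lipid droplet and milk fat globule, and 8 of fatty acid uptake, binding and efflux. A value is given here for 45 of these 46 genes, out of 18194 genes in all, each through the brightest of its probe sets, by the mean of the 8 arrays. Acsl1 was not analysed here. All 45 members lay above the background on each of the 8 arrays and all 45 passed the filter on low values.

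The study asked which signalling pathways C/EBPb, a transcription factor of mammary development, regulates in stem and progenitor cells. Mammary epithelial cells came from germline C/EBPb knockout (KO) and wildtype (WT) mice, in 2 paired sets with 10 mice per group, and were sorted by CD24, CD29 and LIN. The 4 groups are KO LIN-CD24+CD29hi cells, KO LIN-CD24hiCD29lo cells, WT LIN-CD24+CD29hi cells and WT LIN-CD24hiCD29lo cells (CD29hi and CD29lo below), with 2 arrays each. A germline deletion is present in every cell of the animal, so the cells sorted here and the gland around them both carry it. The labels give more mice than arrays for a group, so an array does not stand for 1 mouse. The sources used here do not give the strain, age, stage of the gland or deleted part of Cebpb. With 2 arrays a group, the p-values measure only the spread between these arrays.

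In a lactating gland, luminal cells make fatty acids, join them to glycerol as triglyceride and store them in cytoplasmic droplets. A droplet leaves the cell as a milk fat globule wrapped in plasma membrane. Transcription factors of the SREBP family switch on the genes of sterol and fatty acid synthesis when sterols in the endoplasmic reticulum are low, and INSIG1 holds them back when sterols are plentiful. The glands also take up fatty acids from lipoproteins, which lipoprotein lipase releases.

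The promoters of 4 members are shown because these genes had the smallest averaged p-values between genotypes in 2 arms: Hmgcs1, Insig1 and Idi1 of sterol synthesis, and Plin2 of the droplet coat. Each is the 250 bases before the gene's start from the RefSeq promoter table (GRCm38.p6), 5′ to 3′ along the gene. They lie at chr13:119690101-119690350 (plus strand, Hmgcs1), chr5:28071162-28071411 (plus strand, Insig1), chr13:8885356-8885605 (plus strand, Idi1) and chr4:86670060-86670309 (minus strand, Plin2). Capitals mark matches on either strand to the sterol response element TCACNCCAC and to the CCAAT box, written CCAAT or ATTGG. The C/EBP pattern TTGCNNAA was searched too and has no match in these windows.
Hmgcs1: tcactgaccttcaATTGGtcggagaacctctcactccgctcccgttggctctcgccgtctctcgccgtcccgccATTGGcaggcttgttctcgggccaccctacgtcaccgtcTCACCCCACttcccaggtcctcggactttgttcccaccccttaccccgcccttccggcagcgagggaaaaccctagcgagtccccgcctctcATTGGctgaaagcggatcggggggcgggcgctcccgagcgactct
Insig1: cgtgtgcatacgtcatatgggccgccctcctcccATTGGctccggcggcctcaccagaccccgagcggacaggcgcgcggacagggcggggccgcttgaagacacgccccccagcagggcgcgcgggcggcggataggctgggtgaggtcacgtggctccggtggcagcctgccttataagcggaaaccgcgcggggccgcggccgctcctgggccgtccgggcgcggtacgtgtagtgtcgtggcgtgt
Idi1: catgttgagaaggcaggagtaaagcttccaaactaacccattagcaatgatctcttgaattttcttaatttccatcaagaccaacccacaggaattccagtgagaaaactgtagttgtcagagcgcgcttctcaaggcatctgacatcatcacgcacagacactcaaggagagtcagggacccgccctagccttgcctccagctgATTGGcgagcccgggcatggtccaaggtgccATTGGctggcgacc
Plin2: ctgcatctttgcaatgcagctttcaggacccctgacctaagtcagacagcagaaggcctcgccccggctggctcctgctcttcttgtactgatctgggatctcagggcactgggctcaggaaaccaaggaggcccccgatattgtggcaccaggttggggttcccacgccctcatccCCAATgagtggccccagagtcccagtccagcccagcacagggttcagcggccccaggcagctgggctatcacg
The Hmgcs1 window holds 1 sterol response element, 137 bases before the start, and 3 CCAAT boxes. Insig1 has 1 CCAAT box, Idi1 has 2 and Plin2 has 1. Of 32851 promoters of the same length in the table, 1.05% hold the sterol response element, 33.8% a CCAAT box and 9.56% the C/EBP pattern. Of the 33 members with a promoter in the table, 2 hold the sterol response element (Acsl1 and Hmgcs1), 22 a CCAAT box and 3 the C/EBP pattern (Dhcr7, Pparg and Vldlr). All 6 sterol members with a promoter in the table hold a CCAAT box. A match to these letters is a description and not a binding site.

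All values below are log2 signals per array, and differences are log2 fold changes ± SE from limma, with p-values adjusted over 14598 genes. Cebpb itself was at 8.60 and 9.38 in KO CD29hi arrays, against 11.95 and 12.25 in WT CD29hi arrays. It was at 9.23 and 8.89 in KO CD29lo arrays, against 11.83 and 12.18 in WT CD29lo arrays. The genotypes do not overlap, and Cebpb fell in KO cells, with a difference of -3.11 ± 0.27 in CD29hi (limma adjusted p = 0.0177) and of -2.94 ± 0.27 in CD29lo (limma adjusted p = 0.0271). Its KO signal stayed above the background of 3.835 to 4.41, and whether the probe set lies in the deleted part is not known here. Of the genes of the 2 sorted antigens, Itgb1, which codes for CD29, was higher in CD29hi than in CD29lo cells by 0.35 in KO and 0.18 in WT, neither of them called. Cd24a was lower in CD29hi cells, with a difference of -0.67 in KO (limma adjusted p = 0.00278) and of -0.57 in WT (limma adjusted p = 0.00776). Lineage markers were farther apart: 11 of 11 basal genes were measured, and their summed signal was between 15.23 and 15.66 in CD29hi arrays, against 10.48 to 10.99 in CD29lo arrays. For 13 of 14 luminal genes it was between 14.19 and 14.33 in CD29hi arrays and between 15.26 and 15.45 in CD29lo arrays. Other cell types moved with array and group. Summed over 13 of 14 fibroblast markers, the signal was 10.46 to 11.15 in the 4 CD29hi arrays, against 12.05 and 14.84 in KO CD29lo arrays and 13.70 and 15.30 in WT CD29lo arrays, and no marker was at 0. For 15 of 16 cell cycle genes it was 10.27 and 9.67 in KO CD29hi arrays and 11.70 and 12.91 in WT CD29hi arrays. Adipocyte markers, of which 6 of 9 were measured, gave 6.26 to 7.36 on all arrays. In bulk RNA of sorted cells, fewer cells of a type and less RNA per cell cannot be told apart.

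No member passed the test between genotypes in the main fit, which does not pair the arrays. Averaged over CD29hi and CD29lo cells, the lowest p-values belonged to genes with lower values in KO cells: Plin2, Acsl4, Abca1, Fabp5 and Idi1. In CD29lo cells alone they belonged to Acsl4, Abca1, Acly and Xdh, also with lower values in KO cells. With limma, 0 of 45 members had an adjusted p under 0.05 between KO and WT in CD29hi cells (percent of all genes called: 0.0137), in CD29lo cells (0.0137), averaged over both (0.0685) or in the interaction (0). Over all genes, 10 of 14598 were called in the average. At an unadjusted limma p under 0.05, 8 members were lower and 1 higher in KO CD29hi cells, which is 17.8% and 2.22% of the members, against 4.72% and 3.12% of all genes. In CD29lo cells the same counts were 8 lower and 1 higher, against 4.26% and 2.42% of all genes. Averaged over both, 12 members (26.7%) were lower and 1 (2.22%) higher, against 5.84% and 3.43% of all genes. In the interaction 2 members were above and 3 below 0 at an unadjusted limma p under 0.05, against 2.49% and 2.46% of all genes.

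Counted by overlap, both KO CD29hi arrays lay below both WT CD29hi arrays for 11 members (24.4%, against 21.2% of all genes) and above them for 10 (22.2%, against 18.3%). In CD29lo cells both KO arrays lay below both WT arrays for 19 members (42.2%, against 19.6% of all genes) and above them for 4 (8.89%, against 14.7%). All 4 KO arrays lay below all 4 WT arrays for 5 members, Plin2, Insig1, Idi1, Acsl4 and Acly (11.1%, against 2% of all genes), and above them for 0 (against 1.24%). The median difference over the 45 members was -0.09 in CD29hi, -0.22 in CD29lo and -0.10 averaged, against -0.02, -0.06 and -0.04 over all genes. These counts come with the cell cycle and fibroblast values above, whose part in them was not tested.

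**Figure D1:**
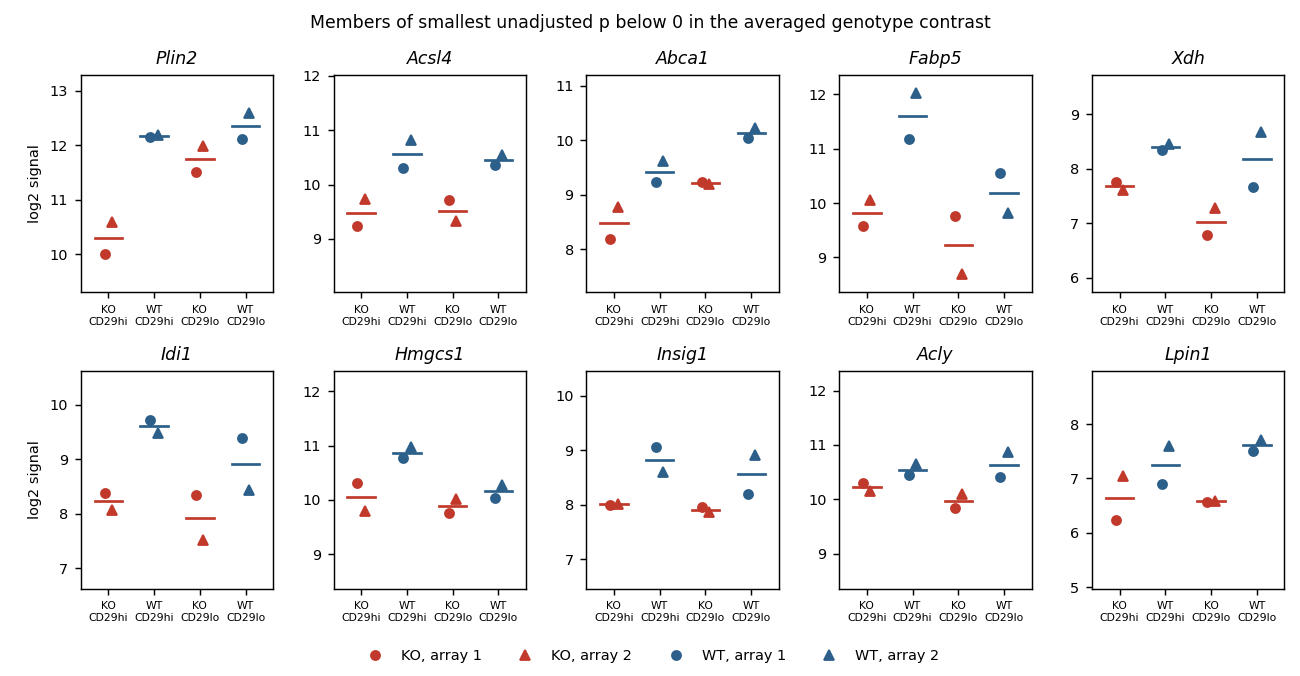
Log2 signal on each of the 8 arrays for 10 members with the smallest p-values among those of negative averaged difference between genotypes, with KO arrays left of WT arrays in each gate. Circles are arrays numbered 1, triangles are arrays numbered 2 and bars are group means. Plin2, Acsl4, Abca1, Idi1 and Fabp5 sat lower in KO than in WT arrays of the same gate, and Plin2 differed more in CD29hi than in CD29lo cells.

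Among droplet and globule genes, Plin2, which codes for perilipin 2, the coat protein of droplets in milk-secreting cells, had the smallest p between genotypes in CD29hi and in the average, by the brightest probe set of each gene. In CD29lo the difference of Xdh was larger. Plin2 was at 10.00 and 10.60 in KO CD29hi arrays, against 12.16 and 12.19 in WT CD29hi arrays. In CD29lo it was at 11.51 and 11.99 in KO arrays, against 12.12 and 12.60 in WT arrays. Both KO CD29hi arrays lie below every other array, and in CD29lo the genotypes differ without overlap but by little more than the distance between replicates. The difference was -1.87 ± 0.24 in CD29hi (limma adjusted p = 0.104, rank 4 of all genes by p, not called) and -0.61 ± 0.24 in CD29lo (limma adjusted p = 0.702). Averaged it was -1.24 ± 0.17 (limma adjusted p = 0.0692). With the replicate number as a block, limma gave Plin2 an adjusted p of 0.0103 in CD29hi and 0.00897 averaged. The labels name paired sets but do not say that this number marks them. Leaving out WT CD29hi replicate 2 gave an adjusted p of 0.335 by limma for the average, and leaving out KO CD29lo replicate 2 gave 0.0497. The difference between the gates' genotype effects was -1.26, with an adjusted limma p of 0.961.

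Xdh codes for xanthine oxidoreductase, which binds the droplet to the membrane at secretion in mice. It was at 7.75 and 7.61 in KO CD29hi arrays, against 8.34 and 8.46 in WT CD29hi arrays. In CD29lo arrays it was at 6.78 and 7.27 in KO and at 7.67 and 8.68 in WT. Its groups do not overlap in either gate, yet the averaged difference of -0.93 did not pass the test. Mfge8, a secreted globule membrane protein that binds phosphatidylserine, overlapped between genotypes in both gates: it was at 11.25 and 11.37 in KO CD29hi arrays, against 11.20 and 11.56 in WT CD29hi arrays, and 11.54 and 11.75 in KO CD29lo arrays, against 11.66 and 11.88 in WT CD29lo arrays. Plin3, a perilipin that moves onto young droplets, stayed between 7.49 and 7.91 on all 8 arrays.

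Butyrophilin, coded by Btn1a1, is the globule membrane protein that works with xanthine oxidoreductase, and its 3 probe sets disagreed. The brightest probe set was at 6.35 and 6.29 in KO CD29hi arrays, against 6.03 and 5.99 in WT CD29hi arrays, and at 6.37 and 6.46 in KO CD29lo arrays, against 6.51 and 6.67 in WT CD29lo arrays. A second probe set was at 3.22 and 3.17 in KO CD29hi arrays, both not above background, against 6.76 and 5.11 in WT CD29hi arrays. In CD29lo it was at 5.26 and 4.71 in KO arrays, against 8.36 and 7.57 in WT arrays. By this second probe set Btn1a1 was at least 4.11-fold lower in KO CD29hi cells, and its measured difference was -2.98 in CD29lo cells. The averaged difference has only a bound for CD29hi behind it and was not called over every probe set tested (limma adjusted p = 0.101). The third probe set was at 2.36 and 1.88 in KO CD29hi arrays, both not above background, against 5.58 and 4.28 in WT CD29hi arrays, at least 2.05-fold lower in KO. In CD29lo it was at 6.17 and 1.53 in KO arrays, the second of them not above background, against 5.55 and 5.98 in WT arrays. Which transcripts each probe set reads was not examined here, so the direction for Btn1a1 depends on the probe set chosen. The milk protein genes gave summed signals of 7.99 and 9.19 in KO CD29hi arrays, against 9.94 and 10.81 in WT CD29hi arrays. In CD29lo the same sum was 12.13 and 11.81 in KO arrays, against 12.08 and 12.33 in WT arrays, and it rests there on Csn3 (12.09 and 11.76 in KO arrays, against 11.92 and 11.83 in WT arrays). Other caseins differed in that gate: Csn1s1 was at 1.96 and 2.23 in KO arrays, against 7.27 and 7.82 in WT arrays, at least 9.57-fold lower in KO (limma adjusted p = 0.0271). Csn2 was not above background in any KO array and was at least 5.11-fold lower in KO CD29lo cells, and Csn1s2a at least 17.5-fold. Of the 8 milk protein genes 1 was called between genotypes in CD29lo, 0 in CD29hi and 2 in the average (Csn1s1 and Csn2), all lower in KO. Their part in the Btn1a1 difference was not tested.

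**Figure D2:**
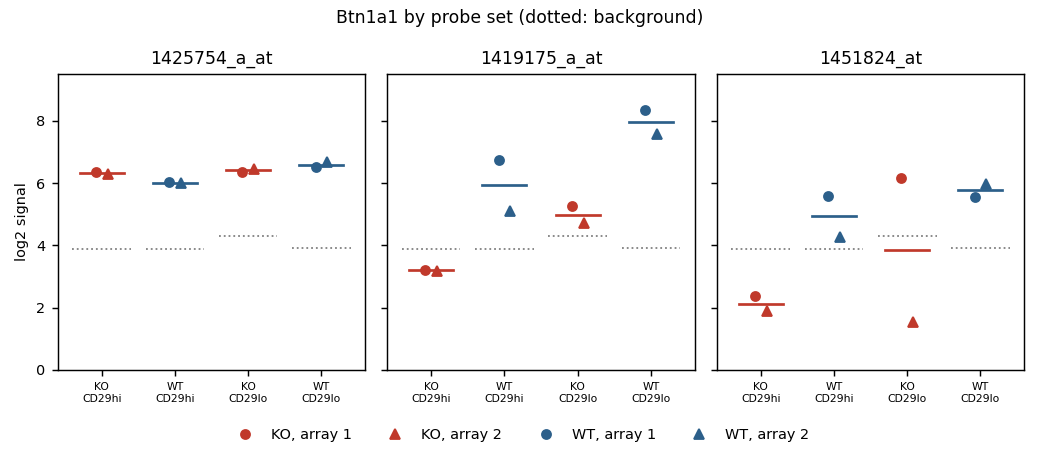
Log2 signal of the 3 Btn1a1 probe sets on each of the 8 arrays, KO left of WT in each gate. Circles are arrays numbered 1, triangles are arrays numbered 2, bars are group means and the dotted line is the mean background of the group's arrays. The brightest probe set (left) stayed between 5.99 and 6.67, while the second (middle) was lower in KO than in WT arrays of both gates and not above background in KO CD29hi arrays.

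Sterol synthesis was the arm with the lowest median between genotypes. All 9 members had lower averages in KO cells, with a median of -0.48, against -0.04 over all genes, and none passed the test. In CD29hi cells 8 of 9 lay below 0 (88.9%, against 51.6% of all genes) with a median of -0.72. In CD29lo cells 7 of 9 lay below 0 (77.8%, against 56.1% of all genes) with a median of -0.27. When a gene's probe sets were averaged in place of taking the brightest, which takes in dim probe sets of Fdft1 and Fdps, the averaged median was -0.18 and 8 of 9 lay below 0.

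Hmgcs1 makes HMG-CoA, the substrate of the pathway's rate-limiting enzyme. It was at 10.31 and 9.80 in KO CD29hi arrays, against 10.77 and 10.97 in WT CD29hi arrays, and at 9.77 and 10.01 in KO CD29lo arrays, against 10.04 and 10.28 in WT CD29lo arrays. Each KO array was below both WT arrays of its gate, and all 5 Hmgcs1 probe sets had a lower average in KO cells. The 4 brightest gave -0.51 to -0.58. The dimmest gave -0.90 and was above background on only 6 of the 8 arrays. Idi1, the isomerase that prepares the first building block of the isoprenoid chain, was at 8.39 and 8.07 in KO CD29hi arrays, against 9.73 and 9.48 in WT CD29hi arrays. In CD29lo arrays Idi1 was at 8.34 and 7.52 in KO and at 9.39 and 8.43 in WT. Its genotypes were apart in both gates, though in CD29lo the replicates lay nearly as far from each other as the genotypes did. The averaged Idi1 difference was -1.18, with an adjusted limma p of 0.275.

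Insig1, the sterol-dependent brake on SREBP and itself an SREBP target, was at 8.0 and 8.02 in KO CD29hi arrays, against 9.05 and 8.60 in WT CD29hi arrays. In CD29lo arrays it was at 7.96 and 7.86 in KO and at 8.20 and 8.91 in WT. Insig1 was thus lower on all 4 KO arrays than on any WT array, and its average of -0.73 was not called. Fdps, which joins the isoprenoid units, was at 5.64 and 6.27 in KO CD29hi arrays, against 6.20 and 7.15 in WT CD29hi arrays, so that these groups overlap. In CD29lo arrays Fdps was at 4.95 and 5.66 in KO and at 5.99 and 6.08 in WT.

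Fdft1 codes for squalene synthase, the first step given over to sterols. In CD29hi it was at 9.31 and 9.37 in KO arrays, against 10.31 and 10.34 in WT arrays, a difference of -0.98. In CD29lo it was at 10.09 and 10.86 in KO arrays, against 10.28 and 10.64 in WT arrays, where the groups overlap and the difference was 0.01. The test of the difference between the gates gave -1.0, with an adjusted limma p of 0.961. The second Fdft1 probe set differed by -0.26 in CD29hi cells. Lss, the cyclase that forms lanosterol, was at 9.08 and 8.47 in KO CD29hi arrays, against 8.74 and 8.64 in WT CD29hi arrays, and at 7.46 and 7.82 in KO CD29lo arrays, against 8.48 and 7.97 in WT CD29lo arrays. Sqle, Dhcr7 and Srebf2 had averaged differences between -0.14 and -0.06.

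**Figure D3:**
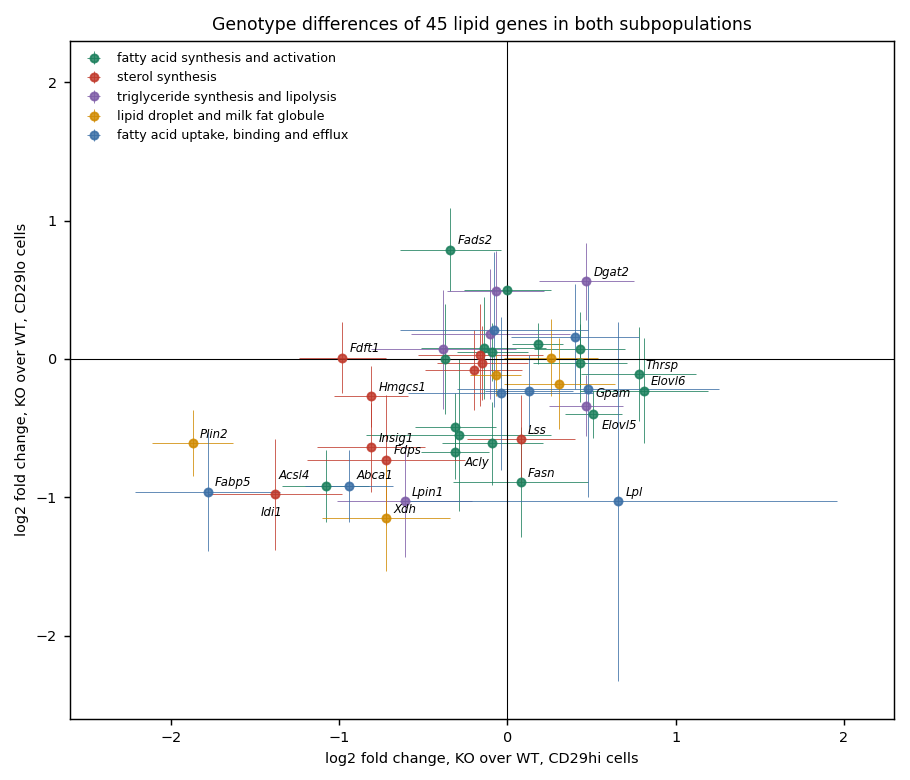
Log2 fold change of KO over WT in CD29hi cells (horizontal) and in CD29lo cells (vertical) for the 45 members, with bars of 1 SE, coloured by arm. Plin2 at -1.87 and -0.61 lies farthest left, and 7 of 9 sterol genes lie at or left of -0.16. No point passed the main limma test in either gate.

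Fatty acid synthesis and activation showed no common direction between genotypes. Of its 17 measured members, 9 had lower averages in KO cells (against 55.9% of all genes), with a median of -0.02. Acsl4, the ligase that activates arachidonic acid and other long polyunsaturated fatty acids, was at 9.23 and 9.73 in KO CD29hi arrays, against 10.30 and 10.81 in WT CD29hi arrays. In CD29lo arrays it was at 9.71 and 9.33 in KO and at 10.35 and 10.54 in WT. All 4 KO arrays lay below all 4 WT arrays, and the average was -1.0 (limma adjusted p = 0.18). The other Acsl4 probe sets gave -1.14 and -1.39, each with an adjusted limma p of 0.0789 over every probe set. Averaging the 3 probe sets gave -1.18 with an adjusted limma p of 0.0478.

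Acly, which makes cytosolic acetyl-CoA from citrate, was at 10.30 and 10.16 in KO CD29hi arrays, against 10.44 and 10.65 in WT CD29hi arrays, and at 9.85 and 10.10 in KO CD29lo arrays, against 10.41 and 10.87 in WT CD29lo arrays. Again each KO array was below both WT arrays of its gate, with an averaged difference of -0.49. Fasn, the synthase that builds palmitate, was at 8.60 and 8.32 in KO CD29hi arrays, against 8.48 and 8.27 in WT CD29hi arrays, and at 6.26 and 7.24 in KO CD29lo arrays, against 7.32 and 7.97 in WT CD29lo arrays. Thus the genotypes overlapped for Fasn in CD29hi, and in CD29lo the KO arrays were the lower ones with a difference of -0.89 that was not called. Acaca, whose product carboxylates acetyl-CoA, was at 9.94 and 10.12 in KO CD29hi arrays, against 10.09 and 10.15 in WT CD29hi arrays. In CD29lo arrays Acaca was at 8.99 and 9.08 in KO and at 9.15 and 10.13 in WT, where WT replicate 2 stands well above the other 3 arrays of the gate.

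Some elongases and desaturases had higher values in KO cells of 1 gate. Elovl5, which elongates polyunsaturated fatty acids, was at 11.76 and 11.96 in KO CD29hi arrays, against 11.33 and 11.37 in WT CD29hi arrays. In CD29lo arrays it was at 10.52 and 10.56 in KO and at 10.70 and 11.19 in WT. Its sign thus differed between gates, at 0.51 in CD29hi and -0.40 in CD29lo, neither of them called. Elovl6, the elongase of palmitate, was at 8.14 and 8.02 in KO CD29hi arrays, against 7.49 and 7.06 in WT CD29hi arrays, and at 8.59 and 8.04 in KO CD29lo arrays, against 8.09 and 8.99 in WT CD29lo arrays. Fads2, the delta-6 desaturase, was at 9.94 and 9.88 in KO CD29hi arrays, against 9.79 and 10.71 in WT CD29hi arrays, and at 9.29 and 9.0 in KO CD29lo arrays, against 8.31 and 8.40 in WT CD29lo arrays. KO exceeded WT without overlap for Elovl6 in CD29hi only and for Fads2 in CD29lo only. For Thrsp, a lipogenic regulator, KO CD29hi arrays were at 7.85 and 8.30, against 7.45 and 7.13 in WT CD29hi arrays. Srebf1, which codes for the SREBP of fatty acid synthesis, overlapped between genotypes in both gates, at 7.38 and 7.04 in KO CD29hi arrays, against 7.02 and 8.14 in WT CD29hi arrays, and at 7.75 and 7.49 in KO CD29lo arrays, against 7.57 and 7.67 in WT CD29lo arrays.

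Triglyceride synthesis and lipolysis had an averaged median of 0.05 over 6 members. Lpin1, the lipin that makes diacylglycerol, was at 6.24 and 7.04 in KO CD29hi arrays, against 6.90 and 7.59 in WT CD29hi arrays, and at 6.57 and 6.59 in KO CD29lo arrays, against 7.51 and 7.71 in WT CD29lo arrays. Only the CD29lo groups are apart, and a second Lpin1 probe set differed there by -0.05. Dgat2, an enzyme of the last step to triglyceride, ran the other way: 7.34 and 7.30 in KO CD29hi arrays, against 6.91 and 6.78 in WT CD29hi arrays, and 8.64 and 8.98 in KO CD29lo arrays, against 8.22 and 8.27 in WT CD29lo arrays. Both KO arrays exceeded both WT arrays in each gate, by 0.52 on average, without a call. Dgat1, Pnpla2 and Lipe overlapped between genotypes in CD29hi, with differences between -0.38 and -0.07. In CD29lo Pnpla2, the gene of the lipase ATGL, was at 8.35 and 8.51 in KO arrays, against 7.77 and 8.10 in WT arrays, apart but not called (0.49). Its second probe set differed by 0.70 in CD29hi and by 0.75 in CD29lo, while Dgat1 and Lipe overlapped in CD29lo too.

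In the uptake, binding and efflux arm, Fabp5 and Abca1 had the lowest averaged differences between genotypes. Fabp5, an epidermal-type fatty acid binding protein, was at 9.58 and 10.06 in KO CD29hi arrays, against 11.18 and 12.03 in WT CD29hi arrays, and at 9.77 and 8.69 in KO CD29lo arrays, against 10.56 and 9.82 in WT CD29lo arrays. The KO CD29lo replicates of Fabp5 lay farther apart than the genotypes did there, and the averaged difference was -1.37 with an adjusted limma p of 0.228. Abca1, which exports cholesterol to apolipoproteins, was at 8.19 and 8.78 in KO CD29hi arrays, against 9.23 and 9.62 in WT CD29hi arrays, and at 9.24 and 9.20 in KO CD29lo arrays, against 10.04 and 10.23 in WT CD29lo arrays. Its groups do not overlap in either gate, with differences of -0.94 in CD29hi and -0.92 in CD29lo, and all 3 of its probe sets had lower averages in KO cells (-0.73 to -1.29), with none called. Vldlr, a receptor for triglyceride-rich lipoproteins, differed by 0.13 in CD29hi and by -0.23 in CD29lo.

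Lpl, which fat cells express, and Cd36 and Fabp4, which fat and capillary cells express, varied more between replicates than between genotypes. Lpl, the lipoprotein lipase gene, was at 4.77 and 8.13 in KO CD29hi arrays, against 5.05 and 6.52 in WT CD29hi arrays. In CD29lo arrays it was at 7.25 and 10.37 in KO and at 8.88 and 10.80 in WT. It had the widest distance between replicates of any member in all 4 groups, from 1.47 to 3.36, where the median member's distance was 0.32 to 0.40. Cd36, a fatty acid transporter, was at 8.50 and 11.18 in KO CD29hi arrays, against 8.88 and 9.84 in WT CD29hi arrays, and at 8.92 and 10.08 in KO CD29lo arrays, against 9.61 and 9.84 in WT CD29lo arrays. Fabp4, the fatty acid binding protein of fat cells and endothelium, was at 10.94 and 12.78 in KO CD29hi arrays, against 11.54 and 12.26 in WT CD29hi arrays, and at 11.42 and 12.32 in KO CD29lo arrays, against 11.92 and 12.32 in WT CD29lo arrays. For all 3 genes the array numbered 2 was the higher one in each group.

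The array numbered 2 was above that numbered 1 in every group for 13 of 45 members (28.9%), against 9.38% of all genes. Besides Lpl, Cd36 and Fabp4 they are Acaca, Elovl1, Elovl5, Fdps, Fdft1, Lpin1, Lipe, Plin2, Mfge8 and Vldlr. The summed signal of 10 of 10 endothelial markers was 9.24 and 11.13 in KO CD29hi arrays and 10.15 and 10.59 in WT CD29hi arrays. In CD29lo it was 8.81 and 9.99 in KO arrays and 10.55 and 10.60 in WT arrays. On these WT CD29lo arrays the mean log2 signal of the endothelial markers went the other way, at 6.56 and 6.30. The fibroblast sum was higher on the array numbered 2 of each group. The 6 adipocyte markers were near background, and between 1 and 4 of them lay above it on any array. The part of these cells in the values of Lpl, Cd36 and Fabp4 was not tested.

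**Figure D4:**
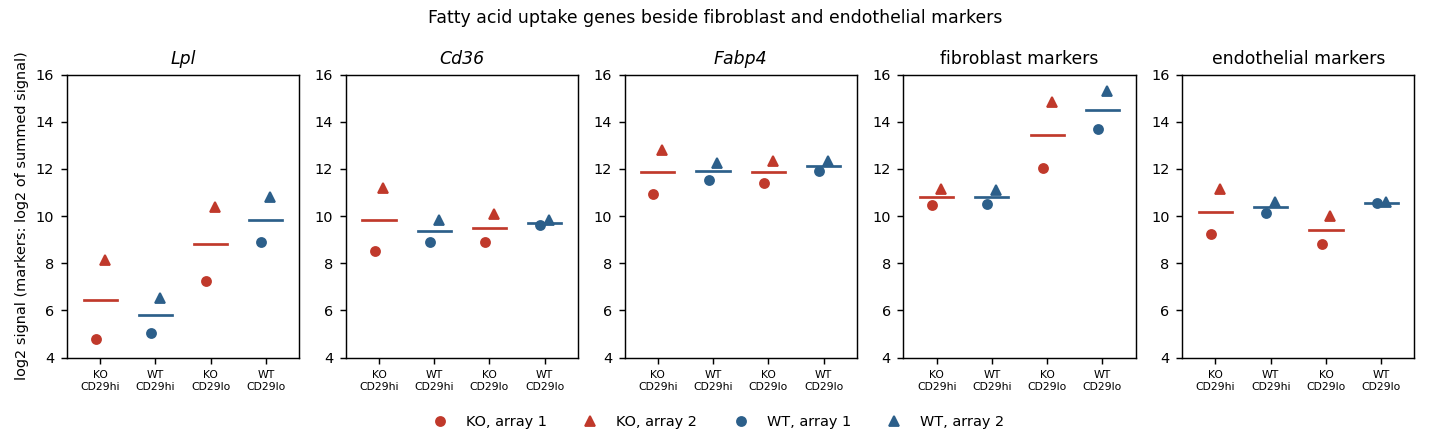
Log2 signal of Lpl, Cd36 and Fabp4 and log2 summed signal of the fibroblast and endothelial marker lists on each of the 8 arrays, KO left of WT in each gate. Circles are arrays numbered 1, triangles are arrays numbered 2 and bars are group means. Lpl ran from 4.77 to 10.80 and was higher on the array numbered 2 in all 4 groups, as was the fibroblast sum. The endothelial sum was nearly equal on the WT CD29lo arrays (10.55 and 10.60) and higher on the array numbered 2 in the other groups.

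Between the 2 gates, 8 of 45 members (17.8%) passed the limma test in KO cells, against 14.1% of all genes. Of these, 5 were higher in CD29hi and 3 lower (against 7.41% and 6.66% of all genes). By arm the called share in KO was 23.5% for fatty acid synthesis, 11.1% for sterol synthesis and 16.7% for triglyceride genes. It was 20.0% for droplet and globule genes and 12.5% for the uptake arm. In WT cells 6 of 45 (13.3%) passed, against 8.19% of all genes, 4 higher and 2 lower (against 3.96% and 4.23% of all genes). Scd2, Fads3, Vldlr and Dgat2 passed in both genotypes. The desaturase genes Scd2, Fads2 and Fads3 were called higher in CD29hi cells of at least 1 genotype, and the triglyceride genes Dgat2 and Gpam were called lower.

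Scd2, a stearoyl-CoA desaturase, was at 10.08 and 10.62 in KO CD29hi arrays, against 8.46 and 8.33 in KO CD29lo arrays, a difference of 1.96 ± 0.24 (limma adjusted p = 0.00174). In WT it was at 10.52 and 10.80 in CD29hi arrays, against 8.93 and 8.84 in CD29lo arrays, a difference of 1.78 ± 0.24 (limma adjusted p = 0.00369). Every CD29hi array thus exceeded every CD29lo array by over 1 unit, and the call held when any 1 array was left out. Fads3, of the fatty acid desaturase cluster, was at 10.03 and 9.77 in KO CD29hi arrays, against 7.94 and 7.60 in KO CD29lo arrays (2.13 ± 0.28, limma adjusted p = 0.00243). In WT it was at 9.28 and 9.66 in CD29hi arrays, against 7.60 and 8.0 in CD29lo arrays (1.67 ± 0.28, limma adjusted p = 0.00959). The second Fads3 probe set differed by 0.70 in WT and 1.36 in KO, and the third by 0.97 in WT and 0.76 in KO. Across 20 alternative settings the WT difference ran from 1.11 to 1.87. The WT call for Fads3 was lost without WT CD29hi replicate 2 (limma adjusted p = 0.0767) or WT CD29lo replicate 1 (0.0652).

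Fads2 was higher in WT CD29hi than in WT CD29lo cells by 1.89 ± 0.30 (limma adjusted p = 0.00799), and by 0.76 in KO cells, which was not called. That WT call was lost without WT CD29lo replicate 1 (limma adjusted p = 0.0517). The second Fads2 probe set differed by 1.05 in WT and 0.96 in KO, and the third by 1.86 in WT and -0.34 in KO. Scd1, the stearoyl-CoA desaturase of liver and fat, had the opposite sign to Scd2. In KO it was at 8.39 and 10.49 in CD29hi arrays, against 10.58 and 10.46 in CD29lo arrays. In WT it was at 9.51 and 9.95 in CD29hi arrays, against 11.13 and 11.02 in CD29lo arrays. Its differences of -1.08 in KO and -1.35 in WT were not called. In KO cells Elovl5 was higher in CD29hi by 1.32 ± 0.17 (limma adjusted p = 0.00227), and both of its probe sets passed. Fasn was higher there by 1.71 ± 0.40 (limma adjusted p = 0.026), a call lost without KO CD29hi replicate 1 (limma adjusted p = 0.158), KO CD29hi replicate 2 (0.0829) or KO CD29lo replicate 1 (0.0966). In WT the differences were 0.40 for Elovl5 and 0.73 for Fasn.

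Of the 9 sterol genes, 7 were higher in CD29hi than in CD29lo cells of each genotype (77.8%, against 51.6% of all genes in KO and 50% in WT), and Dhcr7, which makes cholesterol from its immediate precursor, and Fdft1 were lower. Fdft1 was the only member of this arm to pass, lower in KO CD29hi than in KO CD29lo cells with a difference of -1.13 ± 0.26 (limma adjusted p = 0.0236). Its call was lost without KO CD29hi replicate 1 (limma adjusted p = 0.124), KO CD29hi replicate 2 (0.0893) or KO CD29lo replicate 2 (0.0858). Dhcr7 was at 6.54 and 7.14 in KO CD29hi arrays, against 8.12 and 7.72 in KO CD29lo arrays, and at 7.35 and 6.66 in WT CD29hi arrays, against 7.90 and 7.87 in WT CD29lo arrays.

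Dgat2 was lower in CD29hi than in CD29lo cells, with a difference of -1.49 ± 0.28 in KO (limma adjusted p = 0.0103) and of -1.40 ± 0.28 in WT (limma adjusted p = 0.0192). Its groups are far apart in both genotypes, from 6.78 to 7.34 in CD29hi arrays and from 8.22 to 8.98 in CD29lo arrays. Its KO call was lost without KO CD29hi replicate 1 (limma adjusted p = 0.0709) or replicate 2 (0.0611), and its WT call without any 1 of the WT arrays (0.0742 to 0.101). Gpam, which adds the first fatty acid to glycerol phosphate, was at 9.08 and 9.33 in WT CD29hi arrays, against 10.22 and 10.38 in WT CD29lo arrays. That difference was -1.09 ± 0.22 (limma adjusted p = 0.0189), and it was not called without any 1 of the WT arrays (0.0596 to 0.105). In KO cells Gpam was at 9.83 and 9.52 in CD29hi arrays, against 9.79 and 10.13 in CD29lo arrays, where the groups overlap. Lipe and Pnpla2, the lipases that break triglyceride down, also had lower values in CD29hi cells by their brightest probe sets. The differences were -0.77 and -0.82 in KO and -0.48 and -0.25 in WT, none called. The second Lipe probe set was not above background in any CD29hi array. In CD29lo arrays it was at 5.49 and 6.87 in KO and at 6.51 and 5.56 in WT.

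Plin2 was lower in KO CD29hi than in KO CD29lo cells, with a difference of -1.45 ± 0.24 (limma adjusted p = 0.00644), a call that held when any 1 array was left out. In WT cells the same difference was -0.18. Vldlr was at 11.52 and 11.65 in KO CD29hi arrays, against 9.88 and 10.10 in KO CD29lo arrays (1.60 ± 0.26, limma adjusted p = 0.00568). In WT it was at 11.44 and 11.48 in CD29hi arrays, against 9.78 and 10.66 in CD29lo arrays (1.24 ± 0.26, limma adjusted p = 0.0222). All 6 Vldlr probe sets were higher in CD29hi cells of both genotypes, by 1.13 to 2.00. The WT call was lost without WT CD29hi replicate 1 (limma adjusted p = 0.102), WT CD29hi replicate 2 (0.116) or WT CD29lo replicate 1 (0.0621). Lpl had lower values in CD29hi cells, with differences of -2.36 in KO and -4.06 in WT that were not called. Its second probe set passed over every probe set, at -3.70 in KO (limma adjusted p = 0.0326) and -3.95 in WT (limma adjusted p = 0.0369). In CD29hi arrays this probe set was near the background, at 3.82 (not above it) and 4.28 in KO and at 3.93 and 4.76 in WT. The fibroblast markers given above are higher in CD29lo arrays too, and their part in the Lpl difference was not tested.

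**Figure D5:**
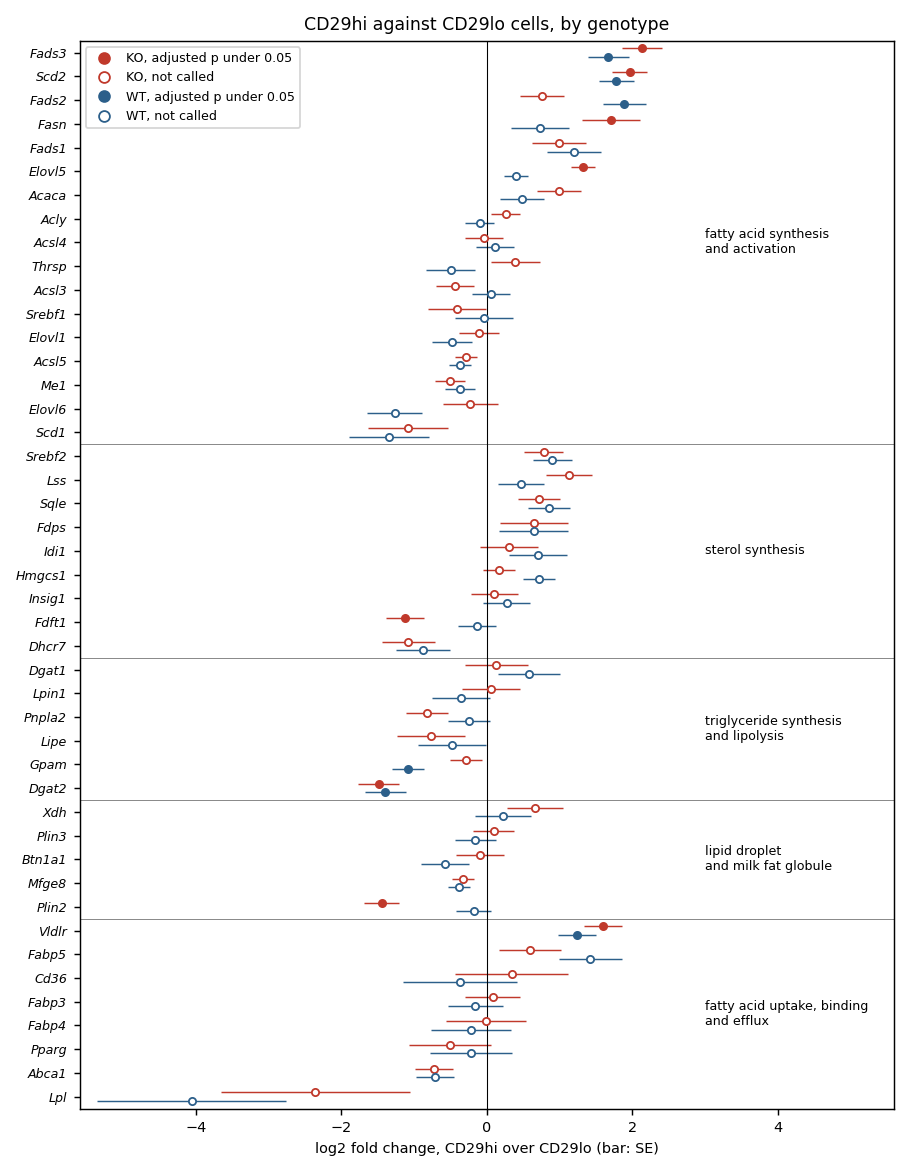
Log2 fold change of CD29hi over CD29lo cells for the 45 members by arm, KO above WT, with bars of 1 SE. Filled points passed the limma test at an adjusted p under 0.05, 8 in KO and 6 in WT. Scd2, Fads3 and Vldlr lie to the right in both genotypes and Dgat2 to the left.

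Further genes of the same pathways were read from 5 lists chosen with earlier results of these data known. None passed the limma test between genotypes. In the sterol list, 10 of 14 tested genes had lower averages in KO cells (71.4%, against 55.9% of all genes), with a median of -0.18. Msmo1, a later step of sterol synthesis, went the other way, at 8.84 and 8.87 in KO CD29hi arrays, against 8.84 and 8.33 in WT CD29hi arrays, and at 8.68 and 8.36 in KO CD29lo arrays, against 7.82 and 7.41 in WT CD29lo arrays. G0s2, an inhibitor of the lipase ATGL, had the smallest averaged p of all 5 lists, with higher values in KO cells: 9.67 and 10.13 in KO CD29hi arrays, against 7.94 and 8.70 in WT CD29hi arrays, and 8.88 and 7.75 in KO CD29lo arrays, against 7.56 and 7.14 in WT CD29lo arrays. Its average was 1.27 (limma adjusted p = 0.285).

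Between the gates, 4 of the 14 tested genes of the fatty acid list were called higher in KO CD29hi than in KO CD29lo cells. This is 28.6%, against 7.41% of all genes. In WT 2 were called higher (14.3%, against 3.96% of all genes), and 0 were called lower in either genotype. Elovl4, the elongase of very long chains, was at 10.79 and 10.59 in KO CD29hi arrays, against 6.96 and 6.53 in KO CD29lo arrays (3.95 ± 0.27, limma adjusted p = 0.000206). In WT it was at 11.05 and 10.96 in CD29hi arrays, against 6.45 and 6.12 in CD29lo arrays (4.72 ± 0.27, limma adjusted p = 0.000113). Hacd2, a dehydratase of the same cycle, was higher by 1.24 in KO and 1.67 in WT, and Hacd1 and Hacd3 were called in KO cells at 1.59 and 0.86. Other genes of the elongation cycle were not called, among them Elovl7 (-0.12 in KO and -0.56 in WT), Tecr (-0.29 in KO and 0.37 in WT) and Hsd17b12 (0.08 in KO and -0.32 in WT). Of the sterol list, Cyp51 was higher in CD29hi cells of both genotypes (1.16 in KO and 1.40 in WT), Scap, the SREBP escort, was higher in KO at 0.88, and Sc5d was lower in KO at -1.27. On the CD29lo side stood Cidea, a droplet protein of milk-secreting and brown fat cells, and Abcg1, a sterol exporter. Cidea was not above background in any CD29hi array and was at 7.36 and 6.68 in KO CD29lo arrays and 6.78 and 5.91 in WT CD29lo arrays, so that it was at least 8.72-fold lower in KO and at least 5.49-fold lower in WT CD29hi cells. Abcg1 was lower in CD29hi cells, with a difference of -3.39 in KO (limma adjusted p = 0.00282) and of -3.46 in WT (limma adjusted p = 0.00361). Of the triglyceride list, G0s2 was higher in KO CD29hi than in KO CD29lo cells, with a difference of 1.58 ± 0.44 (limma adjusted p = 0.0463), and by 0.97 in WT, which was not called. Hsd17b11 and Lpin2 were called lower in CD29hi cells of both genotypes, Muc15 and Slc27a1 in those of KO, and Lipa in those of WT.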

How the data were processed

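RNA of 8 sorted samples was measured on Affymetrix arrays, 1 array per sample. Per the labels' protocols, RNA was isolated with the Arcturus PicoPure kit, amplified with a NuGEN FFPE kit and labelled as biotin cRNA. The deposited values are log2 signals per probe set, as read from their range, scaled by the authors. The sources used here do not name their normalization or software. The array medians lie between 5.45 and 5.67, and no further normalization was applied. The number of arrays limits the precision.

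Probe sets with 1 gene in the platform table (34958 of 45101) gave 18194 genes, each through its brightest probe set. The test took the 14598 genes at or over the 25th percentile of probe set means (3.51). The background of an array is the 95th percentile of 27 bacterial control probe sets. Folds against groups not above it are lower bounds. The 4 groups were fitted together with limma 3.58.1 in R 4.3.3 (lmFit, eBayes with a trend, 4 residual and 4.31 prior degrees of freedom). Tests were two-sided with Benjamini-Hochberg adjustment per contrast and a threshold of 0.05. The fit was tested on simulated data. The background rule, the members and all lists were chosen with earlier results of these data known.

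Named genes are Cebpb, the members, with values per array for those past the threshold and for the 3 of smallest p in each arm and contrast, and those of the further pathway genes that passed or had the smallest p. The labels name 2 paired sets but do not say that the replicate number marks the set, so the main design has no block. Alternatives were quantile normalization, other filters and probe set rules, no trend, array weights, only the arrays compared, blocks, a floor at 4 and left-out arrays. Promoters come from the RefSeq table of GRCm38.p6. The plots used matplotlib 3.10.9 under Python 3.11.15.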

Additional observations from a re-analysis of the deposited data

Results flagged for a closer look

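For 3 of 45 members both KO arrays lay above both WT arrays in 1 gate and below both in the other. Their genotype difference thus differed in sign between the gates. Over all genes, both KO arrays lay above both WT arrays for 18.3% in CD29hi and 14.7% in CD29lo. They lay below for 21.2% and 19.6%. The share of all genes that turn sign in this way was not counted. The 3 are therefore not read as a trait of the members. Elovl5 differed by 0.51 in CD29hi and by -0.40 in CD29lo, and the test of the difference between the gates gave 0.92 (limma adjusted p = 0.961). Its second probe set gave 0.48 and -0.38. Gpam differed by 0.47 in CD29hi and by -0.34 in CD29lo, with a difference between the gates of 0.81 (limma adjusted p = 0.961). The brightest Btn1a1 probe set differed by 0.31 in CD29hi and by -0.18 in CD29lo, with a difference of 0.49 (limma adjusted p = 0.969). None of the 3 differences between gates passed after adjustment.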

How the results depend on the processing

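Across 20 alternative settings, 0 members were called between KO and WT in CD29lo cells or in the interaction. In CD29hi cells the count moved to 1 (Plin2, limma adjusted p = 0.0103) with the replicate number as a block, and in the average to 1 (Plin2, 0.00897) with that block and to 1 (Acsl4, 0.0478) with the mean of probe sets. The deviations of same-numbered arrays from their group means correlated between -0.017 (KO and WT CD29hi) and 0.281 (KO and WT CD29lo). Of 6 pairs of groups, 2 were over 0.1. These correlations cannot decide whether the number marks the paired sets, because a weak set effect would also leave them low. The labels do not say either. Leaving out single arrays gave 0 to 1 called members in the average, 5 to 9 between the gates in KO and 1 to 7 in WT. Leaving out WT CD29lo replicate 1 gave the WT gate count of 1, and leaving out WT CD29hi replicate 2 gave 2. Signs turned for values that were not called. With the mean of probe sets Btn1a1 was at -1.75 in CD29hi and -0.06 in the interaction, and Acly at 0 in CD29lo and 0.02 averaged. These means take in probe sets not above background, among them 2 of the 6 of Acly, whose 3 brightest gave -0.37 to -0.49 averaged. Without KO CD29lo replicate 1 and WT CD29lo replicate 2 together, Vldlr was at 0.32 in CD29lo and -0.19 in the interaction, Xdh at -0.32, Lpl at -0.82 and Fabp5 at 0.09 in the interaction, Mfge8 at 0.09 in CD29lo and 0.01 averaged, and Plin2 at 0.05 between the WT gates. With single arrays left out, Vldlr ran from -0.67 to 0.21 in CD29lo and from -0.08 to 0.80 in the interaction, Xdh from -0.07 to 0.94 in the interaction, and Plin2 from -0.43 to 0.05 between the WT gates. The cause was not tested. A left-out array leaves a group with 1 array, assumed to vary like the others.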
